A study of Sus scrofa with 23 samples.

Results

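The proteasome, ubiquitin-conjugating and deubiquitinating genes of the pig were followed across 4 stages of development. The genes taken were those whose single symbol in the platform annotation starts with PSMA, PSMB, PSMC, PSMD, PSME, UBE2 or USP followed by a digit, with UBE2C left out. Of 6765 genes with a symbol of their own, 76 met this rule: 37 proteasome genes (7 PSMA, 9 PSMB, 5 PSMC, 12 PSMD and 4 PSME), 23 UBE2 genes and 16 USP genes. Each gene was represented by 1 probe set, the one with the highest mean over all 23 samples. The rule itself used names and mean levels and no difference between stages, but the families were chosen with earlier results of these data known.

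The animals descended from German Landrace gilts kept on a gestational low protein diet (LP), and all 23 samples carry that diet, so the stages could be compared but the diet could not. The groups were 94 days post conception (dpc), a fetal stage with 5 samples, and 1, 28 and 188 days post natum (dpn), with 6 samples each. Per the series' design text, the offspring of 3 gilts were used at each stage. The labels do not tie samples to gilts, so littermates must be present within each stage and the p-values, which take the samples as independent, may be too small.

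The proteasome is a barrel-shaped protease that degrades proteins tagged with ubiquitin. Its 20S core is built from alpha subunits (PSMA), which form the gate, and beta subunits (PSMB), some of which carry the proteolytic sites. The 19S cap combines the ATPases that unfold substrates (PSMC) with the subunits that receive ubiquitin chains and hold the cap together (PSMD), and the PSME genes encode alternative caps. Ubiquitin is activated by an E1 enzyme, carried by E2 enzymes (UBE2), attached to substrates with the help of E3 ligases, and removed again by deubiquitinating enzymes, of which USP is the largest family. In skeletal muscle this system breaks down myofibrillar proteins and is raised in several kinds of wasting, and in immune responses interferon exchanges some catalytic subunits for inducible forms.

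Values were deposited as a linear signal intensity per probe set. Differences between stages are differences of mean log2(signal + 16), later stage minus earlier stage, with their standard error (SE) from a limma fit over all 23 arrays. A gene was called where the p-value, adjusted by Benjamini-Hochberg over 23999 probe sets, was under 0.05, and every adjusted p given for a gene is from that fit unless samples are said to be left out. Folds are the same differences on the linear scale, so those of dim probe sets are drawn toward 1 by the added 16. Signals of different probe sets are not comparable with each other. Mean signals are given ± SD, over 5 samples at 94 dpc and 6 at each later stage, and log2 differences ± SE. The 1 dpn group enters 2 of the comparisons, on opposite sides, as does the 28 dpn group, so changes in neighbouring comparisons are not independent of each other.

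Several measurements bear on how the values can be read. The label of every sample says liver, whereas muscle stands in the title of the series. The 8 measured skeletal muscle markers of 11 listed had a median percentile among all probe sets of 99.4 to 99.9 in every sample, and the 12 hepatocyte markers 27.5 to 87.8, so the labelled tissue is not borne out by its markers. In RNA from a whole tissue, fewer cells of a type and less RNA per cell cannot be told apart. In 3 of the 6 samples at 1 dpn (replicates 2, 4 and 5), the control probe sets for the 5' and 3' ends of GAPDH mRNA gave ratios between 0.0868 and 0.148. The ratios of the 20 remaining samples were between 1.09 and 1.29. Calls that rest on 1 dpn were therefore also made without these 3 samples, called below the low-ratio samples, and each call of a named gene that was then lost is marked as lost. The 5' to 3' ratio of the actin control lay between 0.817 and 1.21 at the first 2 stages and between 1.29 and 1.61 at the last 2, so it separates the later pair of stages from the earlier pair. The ratio of the Dap control was at least 0.335 in the 188 dpn samples and at most 0.0981 in the 28 dpn samples. The part of the actin and Dap ratios in the differences between stages was not tested.

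Most proteasome genes were at their lowest before birth. The mean of 28 of the 37 proteasome genes was lowest at 94 dpc, and none was highest there; 13 were highest at 1 dpn, 6 at 28 dpn and 18 at 188 dpn. At 1 dpn against 94 dpc, 21 proteasome genes rose, 0 fell and 16 were not called, with a median log2 difference of 0.73. In limma's test before adjustment, 1 gene was lower at an unadjusted p under 0.05. Over all 6765 genes, 13.7% were called higher and 19.4% lower, with a median of -0.06. At 28 dpn against 1 dpn, 6 rose and 10 fell (median -0.22), beside 13.5% higher and 10.6% lower among all genes (median 0.03). At 188 dpn against 28 dpn, 12 rose and 3 fell (median 0.44), where 5.78% of all genes rose and 12.5% fell (median -0.06). Over the whole span, 188 dpn against 94 dpc, 24 rose and 1 fell (median 0.74), beside 19.5% and 27.4% of all genes (median -0.08).

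The UBE2 and USP families held changes in both directions. Of the 23 UBE2 genes, 6 rose and 1 fell at 1 dpn against 94 dpc, 6 rose and 2 fell at 28 dpn against 1 dpn, 3 rose and 1 fell at 188 dpn against 28 dpn, and 11 rose and 2 fell at 188 dpn against 94 dpc. Of the 16 USP genes, 2 rose and 1 fell in the first of these comparisons, 3 rose and 2 fell in the second, 1 rose and 1 fell in the third and 5 rose and 3 fell over the whole span. Of all genes, in the same order, 13.7%, 13.5%, 5.78% and 19.5% were called higher and 19.4%, 10.6%, 12.5% and 27.4% lower. The UBE2 and USP counts are small and were not tested against these shares. The median log2 differences of the UBE2 genes, in the same order, were 0.21, 0.25, 0.10 and 0.36, and those of the USP genes -0.08, 0.17, 0.06 and 0.18. In all, 59 of the 76 genes were called in at least 1 comparison. The share of all genes called in at least 1 comparison, or in none, was not computed. At 188 dpn against 94 dpc alone, 19.5% of all genes were called higher and 27.4% lower.

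**Figure D1:**
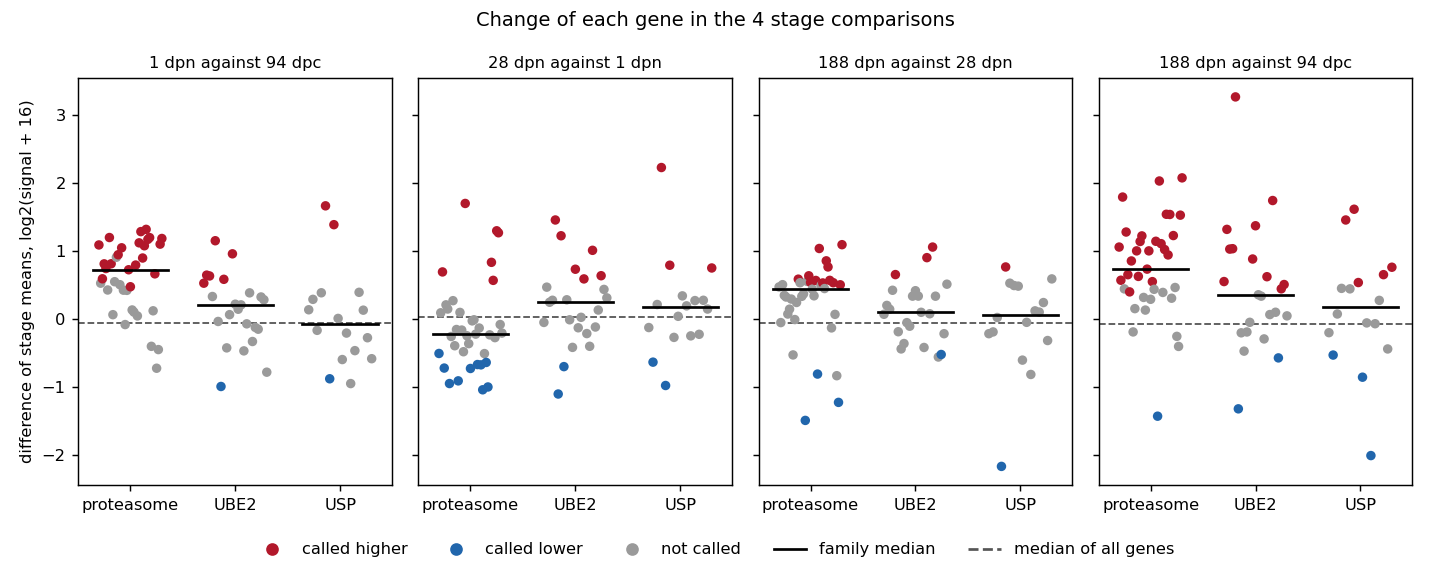
Log2 difference of each of the 76 genes in the 4 comparisons, later stage minus earlier stage, with 1 point a gene, red where called higher, blue where called lower and grey where not called; black bars are family medians and dashed lines the median of all 6765 genes. The proteasome points lie mostly above the dashed line at 1 dpn against 94 dpc and at 188 dpn against 94 dpc, while the USP points spread to both sides, from -2.00 to 1.62 at 188 dpn against 94 dpc.

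Leaving out the 3 low-ratio samples, proteasome genes called higher at 1 dpn against 94 dpc numbered 28, of which 20 were among the 21 called with all samples. PSMA3 lost its call, and PSMA2, PSMA6, PSMB2, PSMB3, PSMB5, PSMB7, PSMC1 and PSMC5 gained one. At 28 dpn against 1 dpn the same exclusion left 0 proteasome genes called higher in limma's test (3 at an unadjusted p under 0.05) and 12 called lower. The rises of PSMA3, PSMB8, PSMD5, PSMD6, PSME1 and PSME2 all lost their calls, and 7 of the 10 falls kept theirs. Of all genes, 14.3% were then called higher and 18.7% lower at 1 dpn against 94 dpc, and 10.4% and 9.08% at 28 dpn against 1 dpn. The falls of PSMA1, PSMA4 and PSMD12 were lost, and PSMB2, PSMB3, PSMB6, PSMB7 and PSMD8 were then called lower. Of the UBE2 genes called higher at 1 dpn than at 94 dpc, 3 of 6 kept the call, UBE2A, UBE2D2 and UBE2F lost it, and UBE2K and UBE2M were added. At 28 dpn against 1 dpn 4 of 6 rises of this family were kept, UBE2K and UBE2N lost the call and UBE2V2 was added, while UBE2F was no longer called lower and UBE2M was. Among the USP genes, both rises at 1 dpn against 94 dpc were kept and the fall of USP21 was lost. At 28 dpn against 1 dpn the rises of USP18, USP21 and USP9X and the fall of USP11 were lost, and USP7 was called higher.

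The samples of a stage did not vary alike. Taking in each sample the median difference of the 37 proteasome genes from their 94 dpc means, the 5 samples at 94 dpc lay between -0.178 and 0.079, those at 1 dpn between 0.228 and 1.163, those at 28 dpn between 0.408 and 0.615 and those at 188 dpn between 0.724 and 0.838 on the log2 scale. The samples at 188 dpn and at 28 dpn did not overlap. The low-ratio samples had 0.445, 0.444 and 0.228, the lowest of their stage, and replicates 1, 3 and 6 at 1 dpn had 0.597, 1.163 and 1.041. Replicate 3 was the highest sample of its stage for 24 of the 37 genes. The median standard deviation within a stage was 0.188 before birth, 0.429 at 1 dpn, 0.134 at 28 dpn and 0.153 at the last stage, on the same scale. The fit takes 1 spread per probe set over all stages, so its p-values do not take account of this difference between stages.

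**Figure D2:**
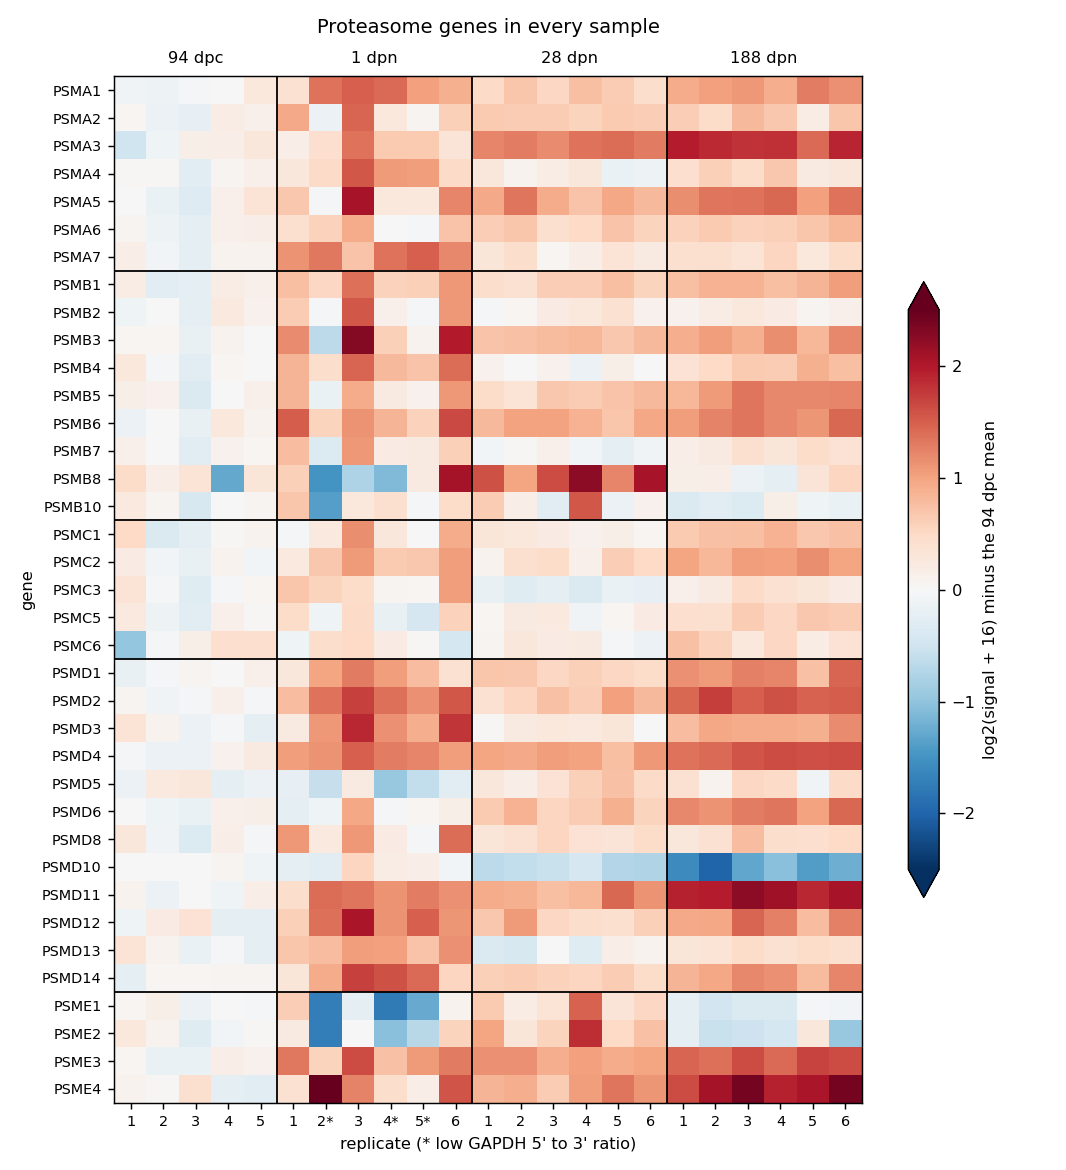
Log2(signal + 16) of the 37 proteasome genes in every sample, as the difference from the gene's 94 dpc mean, on a colour scale of -2.5 to 2.5; an asterisk marks the 3 low-ratio samples at 1 dpn. Most rows are above their fetal mean at 1 dpn and at 188 dpn, PSMD10 is below it at 188 dpn, and PSMB8, PSME1 and PSME2 stand out at 28 dpn.

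Among the alpha subunits of the core, which form the gated outer rings, 5 of 7 rose at 1 dpn against 94 dpc and 6 of 7 were higher at 188 dpn than at 94 dpc. PSMA7 signals were 19575, 16574, 14631, 18435 and 18422 at 94 dpc. PSMA7 signals then ran from 28519.7 to 49049 (median 41914) at 1 dpn, from 17999 to 23765 (median 20951) at 28 dpn and from 20851 to 25451 (median 22968) at 188 dpn. All samples at 1 dpn lay above those at 94 dpc and above those at 28 dpn, and the 3 low-ratio samples were the highest. PSMA7 was 2.3-fold higher (log2 difference 1.20 ± 0.15, adjusted p = 4.3e-06) at 1 dpn than at 94 dpc and 1.93-fold lower (log2 difference -0.95 ± 0.15, adjusted p = 8.7e-05) at 28 dpn than at 1 dpn, and without the low-ratio samples these differences were 1.01 ± 0.16 (adjusted p = 0.00013) and -0.76 ± 0.16 (adjusted p = 0.0029). PSMA1 had 1891, 1838, 1936, 2007 and 2423 at 94 dpc. PSMA1 signals then ran from 2606 to 5669 (median 4626) at 1 dpn, from 2745 to 3377 (median 3009) at 28 dpn and from 3790.0 to 4903 (median 4193) at 188 dpn. It was 2.13-fold higher (log2 difference 1.09 ± 0.18, adjusted p = 7.9e-05) at 1 dpn than at 94 dpc with no overlap of samples. Its fall at 28 dpn against 1 dpn (log2 difference -0.50 ± 0.17, adjusted p = 0.043) was lost without the low-ratio samples (adjusted p = 0.3) and on leaving out any of 16 single samples (adjusted p = 0.05 to 0.1).

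PSMA3 had a higher mean at each stage than at the one before, and the last step, 188 dpn against 28 dpn, was not called (log2 difference 0.51 ± 0.18, adjusted p = 0.069). Its signals were 2270.2, 2971, 3561, 3588 and 3905 at 94 dpc. PSMA3 signals then ran from 3577 to 8187 (median 4661) at 1 dpn, from 7247 to 8473 (median 7819.8) at 28 dpn and from 8583 to 12515 (median 11554) at 188 dpn. The 188 dpn samples did not overlap those of any earlier stage, and PSMA3 was 3.47-fold higher (log2 difference 1.79 ± 0.19, adjusted p = 8.6e-08) at 188 dpn than at 94 dpc. The step at 28 dpn against 1 dpn (log2 difference 0.69 ± 0.18, adjusted p = 0.01) and the step at 1 dpn against 94 dpc (log2 difference 0.59 ± 0.19, adjusted p = 0.025) passed the test with all samples and failed without the low-ratio samples (adjusted p = 0.054 and 0.063). PSMA4 rose at 1 dpn against 94 dpc (log2 difference 0.81), and its fall at 28 dpn against 1 dpn (log2 difference -0.72 ± 0.19, adjusted p = 0.0097) was lost without the low-ratio samples (adjusted p = 0.052), while PSMA5 and PSMA6 were called higher at 188 dpn than at 94 dpc (1.28 and 0.65).

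The constitutive catalytic sites are carried by PSMB6 (caspase-like), PSMB7 (trypsin-like) and PSMB5 (chymotrypsin-like). PSMB6 signals were 6815, 7471, 6574, 9013 and 8003 at 94 dpc. PSMB6 signals then ran from 11134 to 23751 (median 15018) at 1 dpn, from 12132 to 15209 (median 14178) at 28 dpn and from 15457 to 20377 (median 17515) at 188 dpn. PSMB6 was 2.07-fold higher (log2 difference 1.05 ± 0.19, adjusted p = 0.00023) at 1 dpn than at 94 dpc and 2.34-fold higher (log2 difference 1.22 ± 0.19, adjusted p = 1.5e-05) at 188 dpn than at 94 dpc, in both cases with no overlap of samples. PSMB5 averaged 15919 ± 1864 at 188 dpn and 7218 ± 967 at 94 dpc, a difference that passed the test (log2 difference 1.14 ± 0.20, adjusted p = 9.2e-05). At 1 dpn PSMB5 averaged 10719 ± 3650.3, and its difference from 94 dpc was called only without the low-ratio samples (log2 difference 0.96 ± 0.17, adjusted p = 0.00037, against log2 difference 0.51 ± 0.20, adjusted p = 0.073 with all). PSMB7 averaged 10627 ± 797 at 188 dpn and 8538 ± 952 at 94 dpc and was called in no comparison with all samples, although its 188 dpn samples lay above all of those at 94 dpc (log2 difference 0.32 ± 0.19, adjusted p = 0.21). Without the low-ratio samples PSMB7 was called at 1 dpn against 94 dpc (log2 difference 0.82 ± 0.16, adjusted p = 0.00079) and at 28 dpn against 1 dpn (log2 difference -0.87 ± 0.15, adjusted p = 0.00089).

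PSMB4, a non-catalytic subunit of the beta ring, rose between 94 dpc and 1 dpn, fell in suckling and rose again. Its signals were 10632, 8472, 7318, 9049 and 8841 at 94 dpc. PSMB4 signals then ran from 11980.2 to 24060.0 (median 15727) at 1 dpn, from 7977 to 9794 (median 9184) at 28 dpn and from 11276 to 16360.4 (median 13678) at 188 dpn. The samples at 1 dpn did not overlap those at 94 dpc or at 28 dpn, and the 188 dpn samples did not overlap those at 28 dpn. The log2 differences were 0.95 at 1 dpn against 94 dpc, -0.91 at 28 dpn against 1 dpn (adjusted p = 0.00065) and 0.59 at 188 dpn against 28 dpn (adjusted p = 0.022). PSMB1 rose at 1 dpn against 94 dpc (log2 difference 0.81 ± 0.17, adjusted p = 0.00091), and PSMB2, another subunit of the ring, was called in no comparison with all samples.

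**Figure D3:**
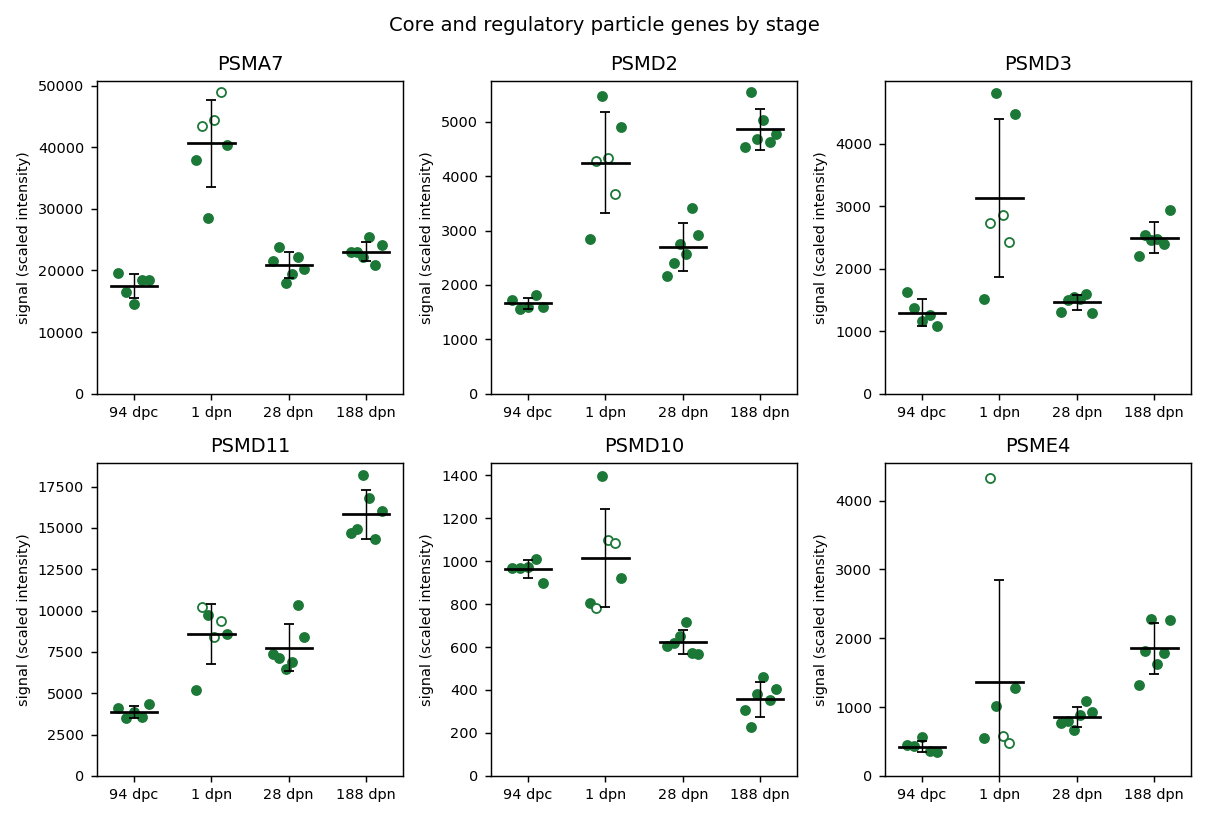
Signal intensity of PSMA7, PSMD2, PSMD3, PSMD11, PSMD10 and PSME4 in every sample at 94 dpc, 1 dpn, 28 dpn and 188 dpn; horizontal bars are means, error bars are SD (n = 5 at 94 dpc and 6 later), and open points are the low-ratio samples. PSMA7 is highest at 1 dpn, PSMD11 and most PSME4 samples are high at 188 dpn, and PSMD10 is lowest at 188 dpn.

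Of the 5 measured ATPases of the 19S cap, 2 rose at 1 dpn against 94 dpc and 3 were higher at 188 dpn than at 94 dpc. PSMC2 rose in both, by log2 differences of 0.73 and 1.00, and its samples at 188 dpn lay above all samples at 94 dpc. Its other probe sets gave 0.55 and -0.38 at 1 dpn against 94 dpc, neither called, and 0.75 and 0.66 at 188 dpn against 94 dpc, both called. PSMC3 was higher at 1 dpn than at 94 dpc (log2 difference 0.48 ± 0.17, adjusted p = 0.045), lower at 28 dpn than at 1 dpn (log2 difference -0.72 ± 0.17, adjusted p = 0.0035) and higher at 188 dpn than at 28 dpn (log2 difference 0.54 ± 0.17, adjusted p = 0.03). It averaged 7965 ± 713 at 188 dpn and 6548 ± 1072 at 94 dpc, a difference that was not called (log2 difference 0.29 ± 0.17, adjusted p = 0.2). PSMC6 was called nowhere, with means between 2084 and 2700.1. PSMC4 was not analysed here.

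Of the non-ATPase subunits of the cap, 9 of 12 genes rose at 1 dpn against 94 dpc. PSMD2, a large scaffold subunit that docks shuttle proteins, had 1729.9, 1566, 1599.7, 1805 and 1597 at 94 dpc. PSMD2 signals then ran from 2839 to 5472 (median 4307) at 1 dpn, from 2157 to 3408 (median 2661) at 28 dpn and from 4530.2 to 5551 (median 4728) at 188 dpn. The highest fetal sample lay below the lowest sample at every later stage. PSMD2 was 2.5-fold higher (log2 difference 1.32 ± 0.17, adjusted p = 3.8e-06) at 1 dpn than at 94 dpc, 1.55-fold lower (log2 difference -0.64 ± 0.16, adjusted p = 0.0071) at 28 dpn than at 1 dpn and 1.81-fold higher (log2 difference 0.86 ± 0.16, adjusted p = 0.00065) at 188 dpn than at 28 dpn. Without the low-ratio samples the first of these was 1.35 ± 0.20 (adjusted p = 5.9e-05) and the second -0.66 ± 0.19 (adjusted p = 0.026). PSMD4, a ubiquitin receptor, had 2664, 2439, 2450.5, 2919.6 and 3156 at 94 dpc. PSMD4 signals then ran from 5587 to 7675 (median 6125) at 1 dpn, from 4601 to 5743 (median 5419) at 28 dpn and from 6930.4 to 8473 (median 8249) at 188 dpn. PSMD4 was 2.3-fold higher (log2 difference 1.20 ± 0.14, adjusted p = 1.5e-06) at 1 dpn than at 94 dpc, and its difference at 28 dpn against 1 dpn was not called (log2 difference -0.23 ± 0.13, adjusted p = 0.27). It was higher again at 188 dpn than at 28 dpn (log2 difference 0.57 ± 0.13, adjusted p = 0.0051).

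PSMD3 and PSMD13, structural subunits of the cap lid, had the largest called falls of the 37 genes at 28 dpn against 1 dpn. PSMD3 signals were 1624, 1373, 1162, 1250.4 and 1078 at 94 dpc. PSMD3 signals then ran from 1506 to 4813 (median 2793) at 1 dpn, from 1289 to 1588 (median 1506) at 28 dpn and from 2193 to 2936 (median 2461) at 188 dpn. Samples at 1 dpn overlapped those at 94 dpc and those at 28 dpn at their lower end. PSMD3 was 2.25-fold higher (log2 difference 1.17 ± 0.22, adjusted p = 0.00035) at 1 dpn than at 94 dpc, 2-fold lower (log2 difference -1.0 ± 0.21, adjusted p = 0.0019) at 28 dpn than at 1 dpn, and 1.7-fold higher (log2 difference 0.77 ± 0.21, adjusted p = 0.016) at 188 dpn than at 28 dpn. PSMD13 had 4108, 3481, 2888, 3181 and 2803 at 94 dpc. PSMD13 signals then ran from 5315 to 7196 (median 6110.1) at 1 dpn, from 2465 to 3667 (median 2927) at 28 dpn and from 4024 to 4495 (median 4299) at 188 dpn. All of its samples at 1 dpn lay above those at 94 dpc and at 28 dpn, and the log2 difference at 28 dpn against 1 dpn was -1.04 with all samples and -1.10 without the low-ratio samples (adjusted p = 4.1e-05 and 0.00034).

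PSMD11, a lid subunit whose abundance is known to promote assembly of the whole 26S particle, had 4094, 3490.3, 3833, 3552 and 4329.9 at 94 dpc. PSMD11 signals then ran from 5213 to 10191 (median 8977) at 1 dpn, from 6474 to 10365 (median 7245) at 28 dpn and from 14303 to 18183 (median 15499.7) at 188 dpn. The 188 dpn samples stood apart from all other stages. PSMD11 was 2.18-fold higher (log2 difference 1.12 ± 0.17, adjusted p = 4.5e-05) at 1 dpn than at 94 dpc, was not called at 28 dpn against 1 dpn (log2 difference -0.13 ± 0.17, adjusted p = 0.67), and was 2.06-fold higher (log2 difference 1.04 ± 0.17, adjusted p = 0.00016) at 188 dpn than at 28 dpn. Another pair of probe sets for PSMD11 gave log2 differences of -0.68 and 0.50 at 1 dpn against 94 dpc, not called. The rise of PSMD11 at 1 dpn against 94 dpc thus rests on the brightest probe set. Both of the pair were called higher at 188 dpn than at 94 dpc. At 28 dpn against 1 dpn the first of the pair was called higher (log2 difference 1.499, adjusted p = 0.016), with overlapping samples. The second was not called there (0.065), so the result for PSMD11 in suckling depends on the probe set. PSMD12, also of the lid, rose at 1 dpn against 94 dpc (log2 difference 1.29 ± 0.22, adjusted p = 9.8e-05). Its fall at 28 dpn against 1 dpn (log2 difference -0.67 ± 0.21, adjusted p = 0.026) was not called without the low-ratio samples (adjusted p = 0.12). PSMD14, the deubiquitinating enzyme built into the lid, averaged 2659 ± 1001 at 1 dpn and 1175 ± 101 at 94 dpc (log2 difference 1.08 ± 0.21, adjusted p = 0.00048), and 2414 ± 307 at 188 dpn. PSMD14 was not called at 28 dpn against 1 dpn (log2 difference -0.51 ± 0.20, adjusted p = 0.087) or at 188 dpn against 28 dpn (log2 difference 0.45 ± 0.20, adjusted p = 0.15).

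PSMD10 and PSMD5, chaperones of cap assembly that are not part of the finished particle, differed from most other PSMD genes. The cap subunit PSMD6 was, like PSMD5, not called at 1 dpn against 94 dpc and called higher at 28 dpn than at 1 dpn. That call of PSMD6 was lost without the low-ratio samples (adjusted p = 0.22). PSMD10 signals were 969.9, 967, 973, 1012 and 897 at 94 dpc. PSMD10 signals then ran from 784 to 1398 (median 1005) at 1 dpn, from 569 to 718 (median 614) at 28 dpn and from 229 to 459 (median 368) at 188 dpn. Its 188 dpn samples lay below all samples of the other stages, and those at 28 dpn lay below all at 1 dpn. PSMD10 was 2.69-fold lower (log2 difference -1.43 ± 0.18, adjusted p = 7.7e-07) at 188 dpn than at 94 dpc, the only proteasome gene of the 37 called lower in that comparison, with most of the decline after birth (log2 difference -0.67 ± 0.17, adjusted p = 0.0079 at 28 dpn against 1 dpn and log2 difference -0.81 ± 0.17, adjusted p = 0.002 at 188 dpn against 28 dpn). PSMD5 averaged 974 ± 146 at 28 dpn and 552 ± 163 at 1 dpn, a called rise (log2 difference 0.84 ± 0.19, adjusted p = 0.003) that was not called without the low-ratio samples (adjusted p = 0.083).

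Across families, 11 of the 76 genes were called higher at 1 dpn than at 94 dpc and lower at 28 dpn than at 1 dpn. The 9 proteasome genes among them were PSMA1, PSMA4, PSMA7, PSMB4, PSMC3, PSMD2, PSMD3, PSMD12 and PSMD13, and the others were UBE2F and USP2. Without the low-ratio samples, the falls of PSMA1, PSMA4 and PSMD12 and both calls of UBE2F were lost. The share of all genes with this pattern was not computed. Of the 11 genes, PSMB4, PSMC3, PSMD2, PSMD3, PSMD13 and USP2 were called higher again at 188 dpn than at 28 dpn. The same 1 dpn samples enter both of the first comparisons, so a high group mean at 1 dpn raises the difference on one side and lowers it on the other.

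The alternative caps PSME3 and PSME4 were higher at 188 dpn than at 94 dpc. At 28 dpn against 1 dpn neither was called (log2 differences -0.08 and -0.20, adjusted p = 0.81 and 0.76). PSME3, the nuclear 11S activator subunit, had 389.6, 334, 334, 424 and 403 at 94 dpc. PSME3 signals then ran from 557 to 1195 (median 877) at 1 dpn, from 723 to 849.9 (median 770.4) at 28 dpn and from 995 to 1239 (median 1127) at 188 dpn. All fetal samples lay below all samples of the later stages. PSME3 was 2.15-fold higher (log2 difference 1.10 ± 0.17, adjusted p = 4.8e-05) at 1 dpn than at 94 dpc and 2.89-fold higher (log2 difference 1.53 ± 0.17, adjusted p = 1.9e-07) at 188 dpn than at 94 dpc. The rise of PSME3 at 188 dpn against 28 dpn (log2 difference 0.51, adjusted p = 0.042) was lost on leaving out any of 13 single samples (adjusted p = 0.05 to 0.082). PSME4, the single-chain activator PA200 known from spermatogenesis and histone turnover, had 444, 428, 558, 353 and 344 at 94 dpc. PSME4 signals then ran from 473 to 4321 (median 793) at 1 dpn, from 659 to 1081 (median 842) at 28 dpn and from 1323 to 2282 (median 1801) at 188 dpn. The highest value at 1 dpn came from replicate 2, a low-ratio sample, and the others of that stage overlapped the fetal samples, whereas the 188 dpn samples lay above all at 28 dpn and at 94 dpc. PSME4 was 4.22-fold higher (log2 difference 2.08 ± 0.37, adjusted p = 9.7e-05) at 188 dpn than at 94 dpc and 2.14-fold higher (log2 difference 1.09 ± 0.36, adjusted p = 0.042) at 188 dpn than at 28 dpn. Its rise at 1 dpn against 94 dpc (log2 difference 1.19 ± 0.37, adjusted p = 0.021) was not called with the GAPDH ratio as a covariate (0.92, adjusted p = 0.16), with only the stages compared in the fit (adjusted p = 0.097) or without replicate 5 at 94 dpc (1.12, adjusted p = 0.051). The rise at 188 dpn against 28 dpn was lost on leaving out any of 11 single samples (adjusted p = 0.05 to 0.087).

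PSME1 and PSME2, the subunits of the interferon-inducible 11S activator, and PSMB8, the inducible counterpart of PSMB5, were highest at 28 dpn. PSMB8 signals were 345, 280.1, 318, 92.6 and 308 at 94 dpc. PSMB8 signals then ran from 76.8 to 1099 (median 215) at 1 dpn, from 503 to 1218 (median 791) at 28 dpn and from 209 to 366 (median 278) at 188 dpn. Every sample at 28 dpn lay above every sample at 188 dpn, and the samples at 28 dpn and 1 dpn overlapped. PSMB8 was 3.25-fold higher (log2 difference 1.70 ± 0.44, adjusted p = 0.0087) at 28 dpn than at 1 dpn and 2.8-fold lower (log2 difference -1.49 ± 0.44, adjusted p = 0.024) at 188 dpn than at 28 dpn. PSME1 had 2618, 2805, 2300.2, 2519 and 2447 at 94 dpc. PSME1 signals then ran from 729.6 to 3867 (median 1593) at 1 dpn, from 2871 to 7044 (median 3408) at 28 dpn and from 1822 to 2469 (median 2069) at 188 dpn. PSME1 was 2.46-fold higher (log2 difference 1.30 ± 0.32, adjusted p = 0.0068) at 28 dpn than at 1 dpn, and its difference at 188 dpn against 28 dpn was not called although the samples did not overlap (log2 difference -0.83 ± 0.32, adjusted p = 0.093). PSME2 averaged 3067 ± 1426 at 28 dpn and 1352 ± 727 at 1 dpn (log2 difference 1.27 ± 0.32, adjusted p = 0.0076), and 1259 ± 383 at 188 dpn, lower than at 28 dpn (log2 difference -1.22 ± 0.32, adjusted p = 0.011).

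The rises of these genes in suckling lost their calls without the low-ratio samples. For PSMB8 the low-ratio samples had 76.8, 106 and 292, against 379, 139 and 1099 in the other samples at 1 dpn. For PSME1 they had 748, 729.6 and 1046, against 3867, 2139 and 2680.5. For PSME2 they had 475, 769 and 994, against 1871, 1616 and 2384. Without them, the differences at 28 dpn against 1 dpn were 0.99 ± 0.46 (adjusted p = 0.18) for PSMB8, 0.43 ± 0.24 (adjusted p = 0.27) for PSME1 and 0.56 ± 0.29 (adjusted p = 0.23) for PSME2, none of them called. The comparison of 188 dpn with 28 dpn shares with the 1 dpn samples only the fitted spread. The falls of PSMB8 and PSME2 in it kept their calls without the low-ratio samples, and PSME1 gained one (log2 difference -0.83 ± 0.32, adjusted p = 0.093 with all samples, adjusted p = 0.0051 without). The fall of PSMB8 was not called without replicate 4 at 28 dpn (-1.37, adjusted p = 0.057) or without replicate 6 at 28 dpn (-1.40, adjusted p = 0.052).

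PSMB10, the inducible counterpart of PSMB7, had 902, 796, 574, 759 and 800.3 at 94 dpc. PSMB10 signals then ran from 281 to 1241 (median 960.5) at 1 dpn, from 625 to 2247 (median 834) at 28 dpn and from 585 to 836 (median 647) at 188 dpn. The stages overlapped throughout and PSMB10 was called in no comparison (at 28 dpn against 1 dpn log2 difference 0.27 ± 0.30, adjusted p = 0.61, and at 188 dpn against 28 dpn log2 difference -0.53 ± 0.30, adjusted p = 0.29). The inducible counterpart of PSMB6, PSMB9, was not analysed here. Over the 23 samples, the 5 genes most like PSMB8 in log2 level, of 6764 compared, were LOC100513601 (Pearson r = 0.862), TAP1 (0.855), SLA-DMB (0.837), IFI44L (0.833) and ISG15 (0.822), given as a description, since samples of a stage share their age and each array its scaling. Among the 76 genes, USP18 stood at rank 6 (r = 0.822), PSME2 at rank 13 (0.795), PSME1 at rank 33 (0.75) and PSMB10 at rank 262 (0.507). PSMB8, PSME1 and PSME2 are all annotated to chromosome 7 in the RefSeq table. So are PSMA4, PSMA6, PSMB5 and PSMC1, whose r with PSMB8 was -0.427, 0.226, 0.28 and -0.109, while USP18 is on chromosome 5.

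USP18, which removes the interferon-induced modifier ISG15 from proteins, had the largest difference of the USP family in suckling. Its signals were 201, 263, 296, 208 and 186 at 94 dpc. USP18 signals then ran from 152 to 1290.1 (median 218) at 1 dpn, from 497 to 3474 (median 1673) at 28 dpn and from 182 to 773 (median 254) at 188 dpn. The samples at 28 dpn ranged widely and overlapped those of both neighbouring stages. USP18 was 4.69-fold higher (log2 difference 2.23 ± 0.46, adjusted p = 0.0015) at 28 dpn than at 1 dpn and 4.48-fold lower (log2 difference -2.16 ± 0.46, adjusted p = 0.0023) at 188 dpn than at 28 dpn. The low-ratio samples had 152, 183 and 218, against 419, 218 and 1290.1 in the other samples at 1 dpn, and without them the rise was not called (log2 difference 1.55 ± 0.54, adjusted p = 0.067).

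Markers of the interferon response and of leukocytes also differed between these stages. Of 10 measured interferon-response partners, 9 were higher at 28 dpn than at 1 dpn, 1 was lower there (B2M, the light chain of MHC class I, -0.38), and 8 were lower at 188 dpn than at 28 dpn. Beside these counts and the leukocyte counts below, 13.5% of all genes were called higher at 28 dpn than at 1 dpn. At 188 dpn against 28 dpn, 12.5% of all genes were called lower. Among those that moved both ways were GBP1, a large GTPase (3.38 and -2.69), and RSAD2, the antiviral enzyme viperin (3.27 and -2.99). MX1, an antiviral GTPase, differed by -3.42 on the log2 scale at 188 dpn against 28 dpn. Without the low-ratio samples, 2 of the 10 were called higher at 28 dpn than at 1 dpn, GBP1 among them (log2 difference 2.83 ± 0.64, adjusted p = 0.0055). The call of RSAD2 was then lost (adjusted p = 0.095). At 1 dpn against 94 dpc, 1 of the 10 was called higher with all samples, beside 13.7% of all genes. Without the low-ratio samples, 4 of the 10 were called higher in that comparison. PSMB8, PSME1, PSME2 and USP18 were not called there in either case. The shares of all genes without the low-ratio samples are given above. Of the 12 leukocyte markers measured of 14 listed, 4 were higher at 28 dpn than at 1 dpn, as many without the low-ratio samples, and 4 were lower at 188 dpn than at 28 dpn. Their signals, summed per sample, came to 1130 to 1858 before birth, 1125 to 1806 at 1 dpn, 2140 to 4540 at 28 dpn and 1393 to 2005 in the 188 dpn samples, with no marker at 0. The highest sum, in replicate 4 at 28 dpn, came from the sample that also had the highest PSME1 signal, 7044. The part of leukocytes in the levels of PSMB8, PSME1, PSME2 and USP18 was not tested.

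**Figure D4:**
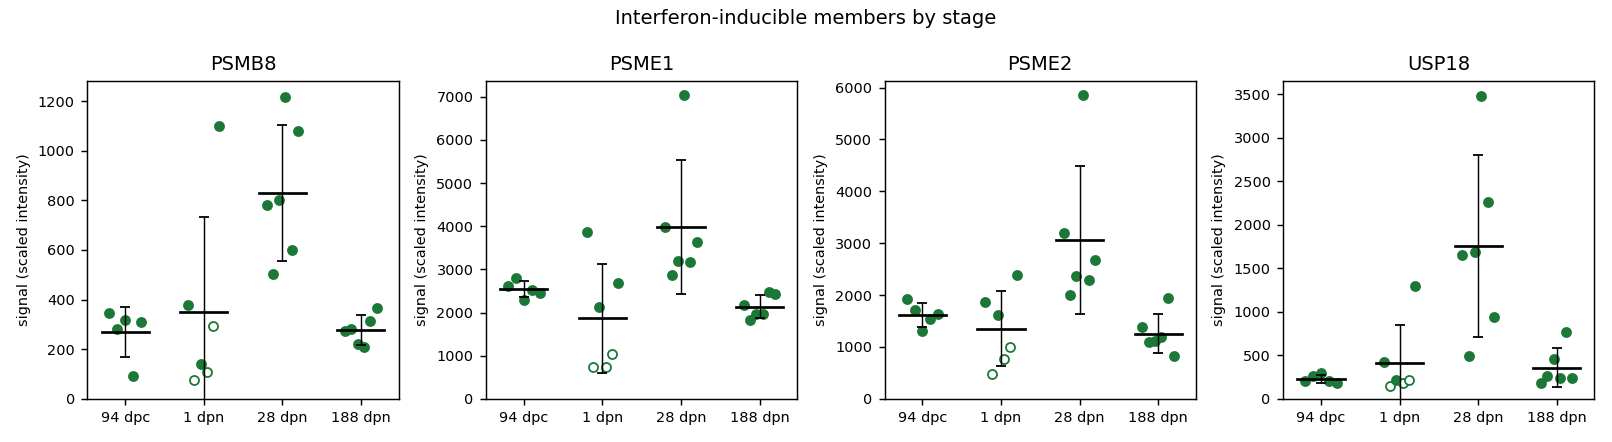
Signal intensity of PSMB8, PSME1, PSME2 and USP18 in every sample by stage; horizontal bars are means, error bars are SD, and open points are the low-ratio samples at 1 dpn. PSMB8, PSME1 and PSME2 are higher in all samples at 28 dpn than at 188 dpn, and the open points are the lowest of their stage for PSME1.

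Among the E2 enzymes, the UBE2D group works with many E3 ligases. UBE2D4 rose in each comparison. Its signals were 576, 564, 480.4, 399 and 468 at 94 dpc. UBE2D4 signals then ran from 726 to 1599 (median 1107) at 1 dpn, from 2657 to 3704 (median 3080.2) at 28 dpn and from 3879.8 to 6882 (median 4595) at 188 dpn. No pair of neighbouring stages overlapped, and UBE2D4 was 9.62-fold higher (log2 difference 3.27 ± 0.20, adjusted p = 1.8e-11) at 188 dpn than at 94 dpc, the largest rise among the 76 genes in that comparison. The steps were 1.15 ± 0.20 (adjusted p = 0.00015) at 1 dpn against 94 dpc, 1.46 ± 0.19 (adjusted p = 1.3e-05) at 28 dpn against 1 dpn and 0.66 ± 0.19 (adjusted p = 0.022) at 188 dpn against 28 dpn. Its other probe sets gave -0.11 and -0.08 for the first step, not called, and 2.08 and 1.93 for the second, both called. The first step thus rests on 1 probe set. The third step was not called without replicate 4 at 28 dpn, replicate 2 at 188 dpn or replicate 6 at 188 dpn (0.61, 0.56 and 0.59, adjusted p = 0.053, 0.063 and 0.059) or with quantile normalization (0.57, adjusted p = 0.055). UBE2D2 rose at 1 dpn against 94 dpc (log2 difference 0.64 ± 0.17, adjusted p = 0.0058) and was not called there without the low-ratio samples (adjusted p = 0.08).

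UBE2B, a DNA-repair and muscle-wasting E2 related to yeast Rad6, had 4799, 4738, 4115, 3768 and 4097 at 94 dpc. UBE2B signals then ran from 4179 to 9782 (median 6610.4) at 1 dpn, from 8079.5 to 11045 (median 9077) at 28 dpn and from 8886 to 12159.5 (median 11176) at 188 dpn. Samples at 188 dpn lay above all fetal ones. UBE2B was 2.5-fold higher (log2 difference 1.32 ± 0.19, adjusted p = 4.3e-06) at 188 dpn than at 94 dpc and 1.57-fold higher (log2 difference 0.65 ± 0.19, adjusted p = 0.012) at 1 dpn than at 94 dpc, a call that was lost with quantile normalization (0.36, adjusted p = 0.15) and with only the stages compared in the fit (adjusted p = 0.076). UBE2K, which builds the chains that mark proteins for the proteasome, averaged 1296 ± 186 at 188 dpn and 489.8 ± 64.7 at 94 dpc (log2 difference 1.37 ± 0.18, adjusted p = 1.9e-06). UBE2QL1 had 169, 458, 358, 322 and 529 at 94 dpc. UBE2QL1 signals then ran from 103 to 551 (median 293) at 1 dpn, from 372 to 791 (median 592) at 28 dpn and from 941 to 1642 (median 1144) at 188 dpn. UBE2QL1 was 3.35-fold higher (log2 difference 1.74 ± 0.35, adjusted p = 0.00034) at 188 dpn than at 94 dpc, and its rise at 28 dpn against 1 dpn (log2 difference 1.01 ± 0.34, adjusted p = 0.04) lost its call on leaving out any of 7 single samples (adjusted p = 0.06 to 0.1). UBE2J2, an E2 of the endoplasmic reticulum that serves the disposal of misfolded proteins, rose at 1 dpn against 94 dpc (log2 difference 0.96 ± 0.17, adjusted p = 0.00014). UBE2O, a large enzyme with both E2 and E3 activity, rose at 188 dpn against 28 dpn (log2 difference 0.90 ± 0.21, adjusted p = 0.004). Another probe set for UBE2O was called lower at 1 dpn than at 94 dpc and higher at 28 dpn than at 1 dpn (-1.21 and 1.53), where the brightest was not called.

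The related genes UBE2E2 and UBE2E3 went separate ways. UBE2E2 had 895, 1026, 917, 1109.6 and 1081 at 94 dpc. UBE2E2 signals then ran from 499 to 1671 (median 1099) at 1 dpn, from 370.4 to 514 (median 469.8) at 28 dpn and from 315 to 484 (median 399) at 188 dpn. It was 2.14-fold lower (log2 difference -1.10 ± 0.22, adjusted p = 0.00096) at 28 dpn than at 1 dpn, where the samples overlapped and the call was lost with the GAPDH ratio as a covariate (-0.57, adjusted p = 0.053), and 2.49-fold lower (log2 difference -1.32 ± 0.23, adjusted p = 5.4e-05) at 188 dpn than at 94 dpc, where they did not. UBE2E3 had 12916, 11757, 11746, 12778 and 14172 at 94 dpc. UBE2E3 signals then ran from 2822 to 10919 (median 7830.5) at 1 dpn, from 12662 to 17732 (median 14802) at 28 dpn and from 9936 to 12707 (median 10764) at 188 dpn. Samples at 1 dpn lay below all those at 94 dpc and at 28 dpn. UBE2E3 was 1.99-fold lower (log2 difference -0.99 ± 0.26, adjusted p = 0.006) at 1 dpn than at 94 dpc and 2.34-fold higher (log2 difference 1.23 ± 0.25, adjusted p = 0.0012) at 28 dpn than at 1 dpn. The first call was lost with only the stages compared in the fit (adjusted p = 0.053) and with the GAPDH ratio as a covariate (-0.83, adjusted p = 0.058). Its other probe sets were also lower at 1 dpn than at 94 dpc (-1.40 and -2.30, both called), and without the low-ratio samples the main probe set gave -0.91 ± 0.24 (adjusted p = 0.0085) and 1.14 ± 0.23 (adjusted p = 0.0026).

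UBE2V1 and UBE2N form the dimer that makes signalling chains of ubiquitin. UBE2V1 averaged 5126 ± 433 at 28 dpn and 3296 ± 381 at 1 dpn (log2 difference 0.64 ± 0.14, adjusted p = 0.0022), and 3583 ± 423 at 188 dpn, lower than at 28 dpn (log2 difference -0.52 ± 0.14, adjusted p = 0.013). Its other probe sets gave -0.48 and -0.06 at 28 dpn against 1 dpn, against the direction of the brightest, and -0.58 and 0.49 at 188 dpn against 28 dpn, none of them called. The fall was not called with arrays centred on their median (-0.42, adjusted p = 0.057). UBE2F, an E2 for the ubiquitin-like protein NEDD8, was lower at 28 dpn than at 1 dpn (log2 difference -0.70 ± 0.18, adjusted p = 0.01), and that call was lost without the low-ratio samples (adjusted p = 0.26). UBE2T, the E2 of the Fanconi anaemia DNA-repair pathway, averaged 262 ± 78.3 at 188 dpn and 382 ± 47.5 at 94 dpc (log2 difference -0.57 ± 0.22, adjusted p = 0.044), and was not called in the other comparisons, with log2 differences of -0.15, 0.13 and -0.56. Another probe set for UBE2T was lower at 1 dpn than at 94 dpc (-1.41, adjusted p = 0.022) and at 188 dpn than at 94 dpc (-1.36, adjusted p = 0.019). The call of the brightest was lost with quantile normalization (-0.17, adjusted p = 0.6), with arrays centred on their median (-0.28, adjusted p = 0.33) and on leaving out any of 10 single samples, with a difference of -0.37 (adjusted p = 0.12) without replicate 1 at 188 dpn. The proliferation markers, of which 14 of 20 were measured, summed to 4736 to 6616 before birth, 1184 to 2444 at 1 dpn, 2258 to 3724 at 28 dpn and 1427 to 1749 in the 188 dpn samples. Of these markers, 10 were lower at 188 dpn than at 94 dpc, and 1, MCM4, was higher, beside 27.4% and 19.5% of all genes. Their part in the fall of UBE2T was not tested. UBE2D1, UBE2G1, UBE2L6 and UBE2S were not analysed here.

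Among the deubiquitinating enzymes, USP2, whose transcript is known to follow the circadian clock, had 1543, 1353, 1210.4, 916 and 1015 at 94 dpc. USP2 signals then ran from 2200.3 to 6490.0 (median 4139.8) at 1 dpn, from 1466 to 2557 (median 1911) at 28 dpn and from 2517 to 5065 (median 3279.6) at 188 dpn. All samples at 1 dpn lay above all fetal ones. USP2 was 3.17-fold higher (log2 difference 1.67 ± 0.25, adjusted p = 2.7e-05) at 1 dpn than at 94 dpc, 1.97-fold lower (log2 difference -0.97 ± 0.24, adjusted p = 0.0057) at 28 dpn than at 1 dpn and 1.7-fold higher (log2 difference 0.77 ± 0.24, adjusted p = 0.031) at 188 dpn than at 28 dpn. Without the low-ratio samples the first difference was 1.52 ± 0.27 (adjusted p = 4e-04) and the second -0.83 ± 0.27 (adjusted p = 0.043). The second was not called with the GAPDH ratio as a covariate (-0.84, adjusted p = 0.066), and the third was lost on leaving out any of 6 single samples at 28 or 188 dpn (adjusted p = 0.056 to 0.085). USP24, a large enzyme of the family, had 976, 895, 1074, 1163 and 1191 at 94 dpc. USP24 signals then ran from 1891 to 6556 (median 2490.5) at 1 dpn, from 2073 to 2603 (median 2294) at 28 dpn and from 2522 to 3665 (median 3400.4) at 188 dpn. USP24 was 2.62-fold higher (log2 difference 1.39 ± 0.23, adjusted p = 8.7e-05) at 1 dpn than at 94 dpc and 3.06-fold higher (log2 difference 1.62 ± 0.23, adjusted p = 4.9e-06) at 188 dpn than at 94 dpc, in both cases with no overlap. Its highest value at 1 dpn, 6556, was that of replicate 2, a low-ratio sample, and without the low-ratio samples the rise was 1.09 ± 0.17 (adjusted p = 0.00014).

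USP36, a nucleolar enzyme tied to ribosome production, had 246, 268, 272, 340.2 and 237 at 94 dpc. USP36 signals then ran from 46.4 to 257 (median 146) at 1 dpn, from 30.1 to 175 (median 125) at 28 dpn and from 24.2 to 111 (median 48.7) at 188 dpn. The samples at 188 dpn lay below all fetal ones, and USP36 was 4.01-fold lower (log2 difference -2.00 ± 0.37, adjusted p = 0.00013) at 188 dpn than at 94 dpc, the largest fall among the 76 genes in that comparison. Its probe set is dim, with a median percentile of 48.27 among all probe sets. The difference ran from -2.314 to -1.455 over 33 alternatives, all of which kept the call. USP21 had 495, 403, 472, 463 and 352 at 94 dpc. USP21 signals then ran from 174 to 322 (median 222) at 1 dpn, from 294 to 597 (median 405) at 28 dpn and from 523 to 739.9 (median 591) at 188 dpn. It was 1.84-fold lower (log2 difference -0.88 ± 0.20, adjusted p = 0.0018) at 1 dpn than at 94 dpc and 1.73-fold higher (log2 difference 0.79 ± 0.19, adjusted p = 0.0048) at 28 dpn than at 1 dpn, and neither was called without the low-ratio samples (adjusted p = 0.051 and 0.13). USP11 was lower at 28 dpn than at 1 dpn (log2 difference -0.63 ± 0.16, adjusted p = 0.0065), a call that was lost without them (adjusted p = 0.057), and lower at 188 dpn than at 94 dpc (log2 difference -0.53 ± 0.16, adjusted p = 0.013). The second call was lost with quantile normalization (-0.18, adjusted p = 0.43) and with arrays centred on their median (-0.23, adjusted p = 0.31). USP3, which acts on ubiquitinated histones, was lower at 188 dpn than at 94 dpc (log2 difference -0.85 ± 0.26, adjusted p = 0.011), a call that was also lost under both scalings (-0.53 and -0.56, adjusted p = 0.14 and 0.1).

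USP9X and USP7, large enzymes with many substrates, ended higher. USP9X averaged 2029.6 ± 372 at 188 dpn and 1185 ± 199.8 at 94 dpc (log2 difference 0.76 ± 0.23, adjusted p = 0.01), and USP7 2434 ± 199 at 188 dpn and 1539 ± 107 at 94 dpc (log2 difference 0.65 ± 0.21, adjusted p = 0.018). At 28 dpn against 1 dpn USP9X was higher (log2 difference 0.75 ± 0.22, adjusted p = 0.018), with an opposite and uncalled difference of -0.83 in its other probe set and no call without the low-ratio samples (adjusted p = 0.18). That rise was not called without replicate 4 at 1 dpn (0.60, adjusted p = 0.054) or without replicate 6 at 28 dpn (0.66, adjusted p = 0.051). USP1 and USP14 were not analysed here.

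**Figure D5:**
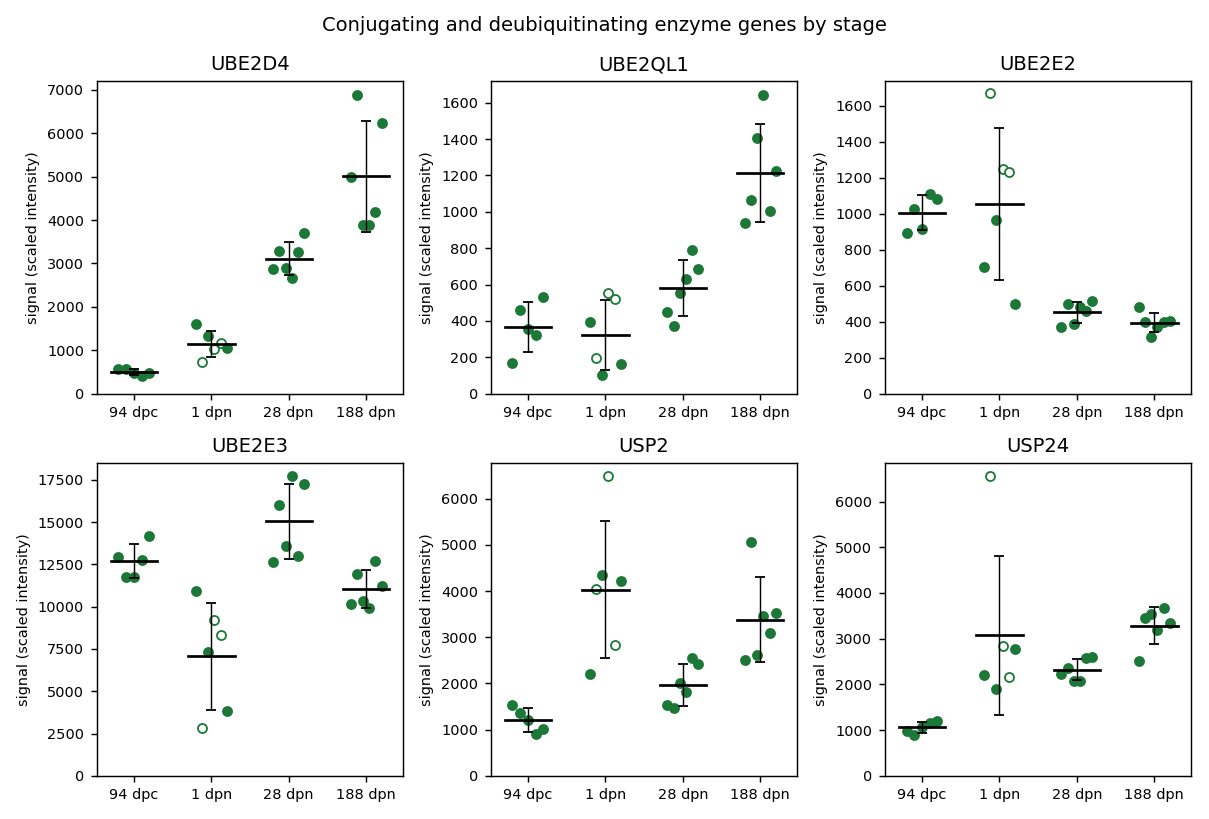
Signal intensity of UBE2D4, UBE2QL1, UBE2E2, UBE2E3, USP2 and USP24 in every sample by stage; horizontal bars are means, error bars are SD, and open points are the low-ratio samples at 1 dpn. UBE2D4 climbs at every stage, UBE2E3 dips at 1 dpn, UBE2E2 is lower at 28 dpn and 188 dpn, and the highest USP24 point is a low-ratio sample.

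The remaining genes with a call are named here so that every called gene is accounted for. Over the whole span, 188 dpn against 94 dpc, the core genes PSMA2 and PSMB3 (log2 differences of 0.57 and 1.00), the ATPases PSMC1 and PSMC5 (0.74 and 0.55) and the cap subunits PSMD1 and PSMD6 (1.15 and 1.23) were called higher. PSMD8, a lid subunit, was called at 1 dpn against 94 dpc (log2 difference 0.67 ± 0.22, adjusted p = 0.026) and was not called at 188 dpn against 94 dpc (log2 difference 0.47 ± 0.22, adjusted p = 0.1). Of the E2 genes, UBE2A, the close relative of UBE2B, UBE2D3 and UBE2V2 were called higher at 188 dpn than at 94 dpc (0.55, 1.04 and 0.51), and UBE2N at 28 dpn than at 1 dpn (log2 difference 0.59 ± 0.19, adjusted p = 0.03), the last not without the low-ratio samples (adjusted p = 0.44). USP28, which opposes the degradation of MYC, was called higher at 188 dpn than at 94 dpc (log2 difference 0.54 ± 0.20, adjusted p = 0.038).

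The 17 genes called in no comparison were PSMB2, PSMB7, PSMB10, PSMC6, UBE2G2, UBE2H, UBE2L3, UBE2M, UBE2Q1, UBE2R2, UBE2W, USP4, USP5, USP8, USP10, USP16 and USP30. UBE2H, an E2 of the CTLH ligase complex, had stage means between 892 and 1089. USP5, which recycles free ubiquitin chains, had means between 409.8 and 539. For USP10 another probe set was called lower at 28 dpn than at 1 dpn and at 188 dpn than at 94 dpc (-0.94 and -0.99), for UBE2W another was lower at 28 dpn than at 1 dpn (-0.98), and for USP16 another was higher at 188 dpn than at 94 dpc (1.20).

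Other genes of the pathway were taken from lists that the rule did not use. Beside their counts, 13.7% of all genes were called higher and 19.4% lower at 1 dpn against 94 dpc. The shares were 13.5% and 10.6% at 28 dpn against 1 dpn, 5.78% and 12.5% at 188 dpn against 28 dpn, and 19.5% and 27.4% at 188 dpn against 94 dpc. Of 12 measured genes for proteasome assembly, shuttling and further 26S subunits, 5 rose and 0 fell at 1 dpn against 94 dpc, 0 rose and 6 fell at 28 dpn against 1 dpn, 7 rose and 0 fell at 188 dpn against 28 dpn, and 9 rose and 1 fell at 188 dpn against 94 dpc. In the directions with 0 calls, 0 genes had an unadjusted p under 0.05 in limma's test. The first 2 counts were 4 rises and 0 falls, and 1 rise and 4 falls, without the low-ratio samples. SQSTM1, the autophagy receptor p62, had signals of 2513 to 4998 in samples at 94 dpc, 4341 to 25665 in samples at 1 dpn, 4181 to 9022 in samples at 28 dpn and 15003 to 20255 in samples at 188 dpn. SQSTM1 was higher at 1 dpn than at 94 dpc (log2 difference 1.63 ± 0.30, adjusted p = 0.00026) and at 188 dpn than at 28 dpn (log2 difference 1.67 ± 0.29, adjusted p = 3e-04). Its fall at 28 dpn against 1 dpn (log2 difference -1.05 ± 0.29, adjusted p = 0.013) was lost without the low-ratio samples (adjusted p = 0.23). VCP, the ATPase that extracts ubiquitinated proteins for the proteasome, differed by 1.16 at 1 dpn against 94 dpc and -0.72 at 28 dpn against 1 dpn, and both calls held without those samples (adjusted p = 0.00037 and 0.029). ZFAND5, an activator of the proteasome, and TXNL1, a thioredoxin-like protein of the cap, were higher at 188 dpn than at 94 dpc (1.96 and 2.14), and PAAF1, an inhibitor of 26S assembly, was lower (-1.02).

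The ubiquitin and E1 genes were called at 28 dpn against 1 dpn and at 188 dpn against 94 dpc only. Of 7 measured, 0 were called in limma's test at 1 dpn against 94 dpc (4 at an unadjusted p under 0.05) and 0 at 188 dpn against 28 dpn (2 at an unadjusted p under 0.05), and 2 were called lower at 28 dpn than at 1 dpn, the ubiquitin precursor RPS27A (log2 difference -0.65 ± 0.14, adjusted p = 0.0027) and ATG7 (log2 difference -0.77 ± 0.18, adjusted p = 0.0037), the E1 of autophagy. At 188 dpn against 94 dpc 2 rose, UBB, a polyubiquitin gene (log2 difference 0.74 ± 0.15, adjusted p = 0.00047), and NAE1, the NEDD8-activating subunit (log2 difference 1.39 ± 0.23, adjusted p = 3e-05), and 2 fell, SAE1 (log2 difference -0.64 ± 0.22, adjusted p = 0.024) and UBA2 (log2 difference -0.61 ± 0.16, adjusted p = 0.0036), the subunits of the SUMO E1. Of 13 ubiquitin-like modifier genes, 4 rose and 1 fell at 1 dpn against 94 dpc, 4 rose and 2 fell at 28 dpn against 1 dpn, 1 rose and 2 fell at 188 dpn against 28 dpn, and 6 rose and 1 fell at 188 dpn against 94 dpc. MAP1LC3B, the autophagosome protein LC3B, rose and SUMO2 fell at 1 dpn against 94 dpc (log2 difference 1.35 ± 0.24, adjusted p = 2e-04, and log2 difference -1.27 ± 0.22, adjusted p = 0.00012). ISG15 differed by 2.54 at 28 dpn against 1 dpn and -3.14 at 188 dpn against 28 dpn, the first not called without the low-ratio samples (adjusted p = 0.54). UBD, the inducible modifier FAT10, was higher at 28 dpn than at 1 dpn with all samples (log2 difference 2.78 ± 0.41, adjusted p = 5.1e-05) and without those (log2 difference 2.29 ± 0.45, adjusted p = 0.0022).

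Of 8 measured E3 ligases of muscle protein turnover, 1 rose and 1 fell at 1 dpn against 94 dpc, 0 were called in limma's test at 28 dpn against 1 dpn (2 at an unadjusted p under 0.05), 1 rose and 2 fell at 188 dpn against 28 dpn, and 4 rose and 2 fell at 188 dpn against 94 dpc. FBXO32, the muscle ligase atrogin-1, had 580.5 to 1429 in samples at 94 dpc, 641 to 10421 in samples at 1 dpn, 636 to 1617 in samples at 28 dpn and 3885 to 10712 in samples at 188 dpn. It was higher at 188 dpn than at 28 dpn with no overlap of samples (log2 difference 2.47 ± 0.51, adjusted p = 0.0016) and at 188 dpn than at 94 dpc (log2 difference 2.73 ± 0.53, adjusted p = 0.00022). CBLB, a ligase of signalling proteins, and TRIM55, a sarcomeric ligase, were lower at 188 dpn than at 94 dpc (-1.35 and -1.15). Of 14 other deubiquitinating enzymes, 1 rose and 1 fell, 3 rose and 2 fell, 3 rose and 0 fell (0 lower at an unadjusted p under 0.05), and 6 rose and 2 fell, in the order of the comparisons. UCHL1, a ubiquitin hydrolase best known from neurons, was higher at 188 dpn than at 28 dpn (log2 difference 3.22 ± 0.59, adjusted p = 0.00061), and its rise at 1 dpn against 94 dpc (log2 difference 1.73 ± 0.62, adjusted p = 0.042) was lost without the low-ratio samples (adjusted p = 0.26). UCHL3 was higher at 188 dpn than at 94 dpc (log2 difference 1.86 ± 0.26, adjusted p = 3.7e-06).

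The skeletal muscle markers rose over the same span as the proteasome genes. Summed per sample, they came to 206900 to 235200 before birth, 254400 to 463100 at 1 dpn, 366400 to 615400 at 28 dpn and 500200 to 667100 in the 188 dpn samples. At 1 dpn against 94 dpc 3 of the 8 were called higher, and at 188 dpn against 94 dpc 8 of 8, with no marker at 0. Of all genes, 13.7% and 19.5% were called higher in these comparisons. Their part in the differences of the proteasome genes was not tested. Under a scaling of each array to its median, the median difference of all genes moved to 0.22 at 1 dpn against 94 dpc and to 0.22 at 188 dpn against 94 dpc, and 22.8% and 28.9% of all genes were then called higher and 11.4% and 19.4% lower. That scaling shifts every probe set of an array by the same amount. It could therefore not change the distance between the proteasome median and that of all genes. The proteasome medians were 1.00 and 1.03 under it, with 28 and 31 genes called higher and 0 and 1 called lower. For the USP genes at 1 dpn against 94 dpc the sign of the median depended on the scaling, at -0.08 as deposited and 0.20 after that scaling.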

How the data were processed

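RNA of 23 samples was measured on a porcine Affymetrix array, and groups were taken from the stage in each sample's labels. The deposited values are intensities, 1 linear signal for each of 24123 probe sets per array. GCOS 1.1.1 is named, per the submitters' processing notes, without its role, and the sources used here do not give the summarisation method or detection calls. The trimmed mean (2% off) was 500.12 to 500.21 on all arrays, so the values were taken as already scaled. Such scaling moves all other probe sets when many change on 1 array. No pair of arrays was identical.

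After 124 control probe sets were left out, log2(signal + 16) of 23999 probe sets was fitted with 1 mean per stage in limma 3.58.1 (lmFit, eBayes) in R 4.3.3. All tests are two-sided, adjusted by Benjamini-Hochberg, and the number of arrays limits their precision. The model was run on simulated data with planted changes, independent noise and the same spread at all stages. Littermates, the wider spread at 1 dpn and the low-ratio samples were not simulated, so that run does not bear on them. Symbols came from the platform annotation, in which 10069 probe sets have 1 symbol. A further 3 probe sets with several symbols, 1 of them fitting the rule, were left out, and 73 of the 76 genes were found in the RefSeq table. Of the 76 genes, 19 had several probe sets, whose 28 further probe sets were fitted too. No detection call was at hand, and all 76 genes were tested; 74 lay above the median level of all probe sets.

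The genes and the companion lists were chosen with earlier results of these data known. Genes named were, per comparison and family, up to 4 called rises and 4 called falls with the largest change, 14 measured genes named throughout, and up to 3 called genes per companion list. The rest of the called genes were added to account for each. Alternatives were other scaling, pseudocount, filter, model and probe set choices, and leaving out samples. Figures used matplotlib 3.10.9 and pandas 2.3.3 in Python 3.11.15.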

Additional observations from a re-analysis of the deposited data

Results flagged for a closer look

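Within a stage, the sample farthest out was compared with the nearest of the others for the named genes, with Dixon's ratio on log2 values. Of 172 such groups, 10 had a sample past the critical value, where chance gives about 1 in 20. At 1 dpn, USP24 had 6556 in replicate 2 (others 1891 to 2836), PSMB10 had 281.2 in replicate 2 (others 733.9 to 1241) and PSMD11 had 5213 in replicate 1 (others 8384 to 10190). Replicate 2 is 1 of the 3 samples with a low GAPDH ratio. At 28 dpn, PSME1 had 7044 in replicate 4 (others 2871 to 3979), USP7 had 1680 in replicate 4 (others 2045 to 2228) and USP36 had 30.07 in replicate 2 (others 107.5 to 174.7). At 94 dpc, PSMB8 had 92.6 in replicate 4 (others 280.1 to 345.4) and PSMD14 had 994.9 in replicate 1 (others 1204 to 1236). At 188 dpn, PSMA3 had 8583 in replicate 5 (others 11200 to 12520) and UBE2T had 118.5 in replicate 1 (others 245.1 to 336.9).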

How the results depend on the processing

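Counts of called genes were recomputed under 34 alternatives, of which 23 left out 1 sample each. No paired analysis was possible because the replicate numbers follow accession order and the labels tie no sample of one stage to a sample of another. Leaving out 1 sample, the proteasome count was 17 to 26 (21 with all) at 1 dpn against 94 dpc, 13 to 18 (16) at 28 dpn against 1 dpn, 9 to 18 (15) at 188 dpn against 28 dpn, with 9 without replicate 4 at 28 dpn, and 21 to 26 (25) at 188 dpn against 94 dpc. In the same order, the UBE2 count was 5 to 9 (7), 6 to 11 (8), 2 to 4 (4) and 10 to 14 (13), with 2 in the third comparison without replicate 4 at 28 dpn or replicate 2 or 6 at 188 dpn. The USP count was 3 to 4 (3), 4 to 6 (5), 1 to 3 (2) and 7 to 8 (8), with 1 in the third comparison without replicate 1 or 4 at 28 dpn or replicate 2, 4 or 6 at 188 dpn.

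At 1 dpn against 94 dpc, 11 UBE2 genes were called with arrays centred on their median and 2 with only the stages compared in the fit, and 5 USP genes with a pseudocount of 64. At 28 dpn against 1 dpn, the fit of only these stages called 9 proteasome and 5 UBE2 genes, the GAPDH ratio as a covariate left 5 UBE2 genes and 1 USP gene, and leaving out the low-ratio samples left 2 USP genes. At 188 dpn against 28 dpn, 23 proteasome genes were called with only these stages and 23 with array weights. The USP count there was 5 with centring, 5 without the dimmer probe sets, 5 with only these stages, 4 with a pseudocount of 64, 6 with array weights, 6 without the low-ratio samples and 4 with the covariate. The fits of only the stages compared use fewer samples, and the causes of the other shifts were not tested. Quantile normalization moved the median difference of all genes to 0.07 and 0.08 at 1 dpn against 94 dpc and at 188 dpn against 94 dpc, with 16.9% and 23.3% of genes higher and 15% and 22.7% lower, and 18 and 20 proteasome genes called higher.

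Of 107 gene results with a comparison, 76 were called. Over all alternatives they gave 3637 values, of which 3437 kept direction and side of the threshold or changed sign without a call, 136 lost a call, 63 gained one and 1 reversed. The reversed value was USP9X at 28 dpn against 1 dpn, with a log2 difference of -0.040 (adjusted p = 0.93) on the mean of its probe sets against 0.75 with the brightest.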
